A study of Schmidtea mediterranea with 6 samples.

Results

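The genes described here are 4 of the 30917 genes counted in planarian X1 cells, and their annotated products are cofactors of lipid handling in the lysosome. They are SMESG000019975.1 (annotated as saposin, putative, and called saposin here), SMESG000019976.1 (prosaposin, PSAP), SMESG000023323.1 (NPC intracellular cholesterol transporter 2, NPC2) and SMESG000002628.1 (ProGRaNulin homolog, PGRN-1). They were picked by name after their difference between exoc3(RNAi) and gfp(RNAi) was known, so that this difference is given below as a description and not as a test. All 4 had enough reads to be among the 14700 genes tested.

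The animals were asexual *Schmidtea mediterranea* kept without food, in which a transcript was silenced by injecting double-stranded RNA (dsRNA). The exoc3(RNAi) group (3 libraries) received dsRNA against *Smed-exoc3*, which encodes a subunit of the exocyst, a complex that tethers secretory vesicles to the plasma membrane. The gfp(RNAi) group (3 libraries) received dsRNA against green fluorescent protein, which these animals do not have. Both groups went through the same starvation and the same injections, and a single exoc3 dsRNA was used. RNA was taken from sorted X1 cells, the irradiation-sensitive and dividing gate that holds the planarian stem cells (neoblasts), and the libraries are described as biological replicates.

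Lysosomes take lipids apart with soluble enzymes that cannot easily reach a molecule buried in a membrane. In mammals, prosaposin is cleaved into small saposins that lift sphingolipids out of the membrane and present them to these enzymes, and NPC2 carries cholesterol inside the lysosome to the membrane protein NPC1. Mammalian progranulin travels to the lysosome, where it is cut into granulins, and its loss there disturbs lipid breakdown. The planarian genes carry these names by sequence likeness, and neither the place nor the activity of their products was measured here.

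*Smed-exoc3* itself had 31.9, 31.2 and 42.4 reads per 1000000 assigned reads (CPM, scaled between libraries by the trimmed mean of M values, TMM) in exoc3(RNAi) replicates 1, 2 and 3, against 70.1, 74.0 and 72.7 CPM in gfp(RNAi) cells. It was lower in all 3 exoc3(RNAi) libraries, at -1.04 on the log2 scale (SE 0.09, adjusted p = 5.7e-07 by edgeR's quasi-likelihood test), and its transcript was closest to the gfp(RNAi) level in exoc3(RNAi) replicate 3. This library also stood apart over the whole transcriptome. A chi-square statistic per degree of freedom is near 1 where 2 libraries differ by counting error alone. It was 7.75 and 7.05 between replicate 3 and the other exoc3(RNAi) libraries, and 1.36 between replicates 1 and 2. Among gfp(RNAi) libraries it was 3.004 and 2.62 between replicate 1 and the others, and 1.33 between replicates 2 and 3. The library of gfp(RNAi) replicate 1 thus also stood apart from its group, though by less. Some values are therefore also given without exoc3(RNAi) replicate 3. They are the members' log2 fold changes and CVs and the counts of the lysosomal list. The log2 fold changes of the 4 other saposin-domain or lysosomal genes farthest above their group in that library are given likewise. Assigned reads per library ranged from 28897363 to 37525894 in exoc3(RNAi) and from 31390710 to 33805416 in gfp(RNAi).

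Neoblast markers were abundant in every library. The piwi gene annotated PIWIL1 had 3304 to 3561 CPM in exoc3(RNAi) cells and 4753 to 4924 CPM in gfp(RNAi) cells, and of the 5 neoblast markers 2 were called higher and 3 lower. Transcripts named as markers of other lineages were also found. The paper describes epidermal progenitor markers as expressed in neoblasts too, and whether other cell types were in the gate was not tested. The summed level of 20 epidermal progenitor markers was 1524 to 1579 CPM in exoc3(RNAi) and 3078 to 3164 CPM in gfp(RNAi), and all 20 were called lower. The sum of 6 muscle markers was 340.1 to 390.2 CPM in exoc3(RNAi) and 382.1 to 388.2 CPM in gfp(RNAi). Its highest exoc3(RNAi) value was that of replicate 3, and the other libraries of the group had 340.1 and 342.4 CPM. The level in replicate 3 over the mean of replicates 1 and 2 was 3.38 for Mlp84B and 1.22 for MYH15-2. It was 0.988 to 1.06 for the other muscle markers. The sum of 6 neural markers was 282.0 to 287.7 CPM in exoc3(RNAi) and 306.9 to 320.4 CPM in gfp(RNAi). Of the muscle markers 3 were called higher and 3 lower, and of the neural markers 2 higher and 4 lower. All these markers carry names from the part of the study's annotation used here, in which every named gene was called. Their calls are therefore no independent evidence, and of all tested genes 25.8% were called higher and 27.1% lower. No marker of any of these lists was at 0 in any library, their part in the results below was not tested, and markers of gut and phagocytic cells were not examined.

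The members with saposin domains came out at very different sizes. The gene annotated saposin, putative, had 38.9, 39.4 and 43.1 CPM in exoc3(RNAi) replicates 1, 2 and 3, against 6.24, 6.14 and 6.01 CPM in gfp(RNAi). The groups lay far apart, since the lowest exoc3(RNAi) library was 6.23 times the highest gfp(RNAi) library. The mean was 40.5 ± 2.29 CPM in exoc3(RNAi) cells and 6.13 ± 0.118 CPM in gfp(RNAi) cells (SD, n = 3 each), and the log2 fold change was 2.72 (SE 0.07). Because the libraries hold RNA of a sorted population, more cells with the transcript and more transcript per cell cannot be told apart, for this gene as for the others.

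PSAP, whose name is that of the saposin precursor, had 5.84, 5.38 and 5.31 CPM in exoc3(RNAi) replicates 1, 2 and 3, against 2.43, 1.97 and 2.04 CPM in gfp(RNAi). All exoc3(RNAi) libraries were again above all gfp(RNAi) libraries, here by at least 2.18 times. The mean was 5.51 ± 0.288 CPM in exoc3(RNAi) and 2.15 ± 0.249 CPM in gfp(RNAi), which gives a log2 fold change of 1.36 (SE 0.12), the smallest of the members. These values rest on 158 to 222 reads per library in exoc3(RNAi) and on 61 to 78 reads in gfp(RNAi).

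NPC2, the sterol carrier, was the member with the fewest reads in total and the widest spread. It had 3.82, 4.29 and 6.56 CPM in exoc3(RNAi) replicates 1, 2 and 3, against 1.25, 1.55 and 0.781 CPM in gfp(RNAi). The groups did not overlap, and the highest value was that of exoc3(RNAi) replicate 3. The mean was 4.89 ± 1.47 CPM in exoc3(RNAi) and 1.19 ± 0.388 CPM in gfp(RNAi), with a log2 fold change of 2.04 (SE 0.24). Without exoc3(RNAi) replicate 3 the log2 fold change was 1.76.

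PGRN-1, the granulin family member, had 40.5, 41.8 and 44.8 CPM in exoc3(RNAi) replicates 1, 2 and 3, against 10.5, 7.73 and 8.23 CPM in gfp(RNAi). The lowest exoc3(RNAi) library was 3.88 times the highest gfp(RNAi) library, and the highest gfp(RNAi) value was that of replicate 1. The mean was 42.4 ± 2.18 CPM in exoc3(RNAi) and 8.80 ± 1.45 CPM in gfp(RNAi), with a log2 fold change of 2.27 (SE 0.09). Without exoc3(RNAi) replicate 3 the log2 fold changes were 2.67 for saposin, 1.39 for PSAP and 2.22 for PGRN-1.

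**Figure D1:**
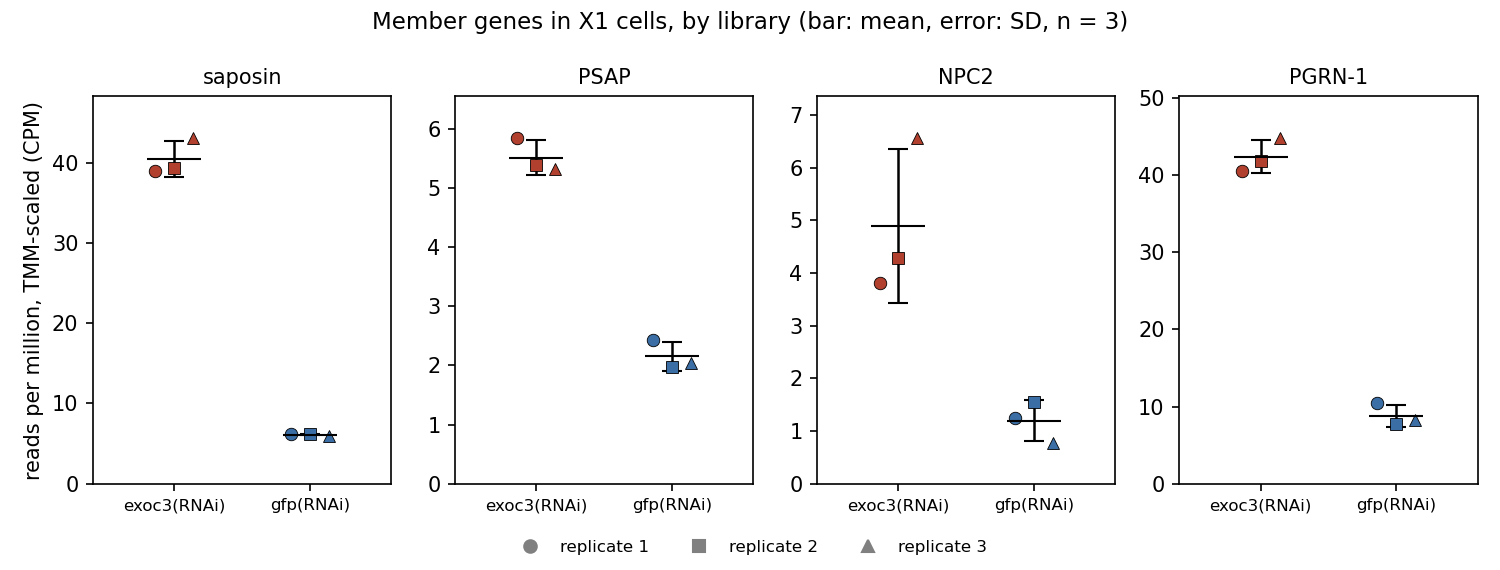
CPM (TMM-scaled) of the 4 members, with a panel and a linear axis from 0 for each gene. Points are libraries with a shape per replicate, horizontal bars are means and error bars are SD (n = 3). In each panel the 3 exoc3(RNAi) points lie above the 3 gfp(RNAi) points, and the NPC2 point of exoc3(RNAi) replicate 3, at 6.56 CPM, lies above the other 2 libraries of its group.

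All 4 members were thus called higher in exoc3(RNAi) (edgeR, adjusted p under 0.05), and the libraries of the groups overlapped in none of them. Of all tested genes 25.8% were called higher. All exoc3(RNAi) libraries lay above all gfp(RNAi) libraries in 30.1% of tested genes and below them in 30.7%. Since the members were picked from this contrast, nothing is read from their count. By log2 fold change, saposin stood at place 19 of the 14700 tested genes, PGRN-1 at place 34, NPC2 at place 67 and PSAP at place 234. The median log2 fold change was 2.15 over the members and 0.02 over all tested genes, and 3.40% of tested genes were called with a log2 fold change above 1.

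**Figure D2:**
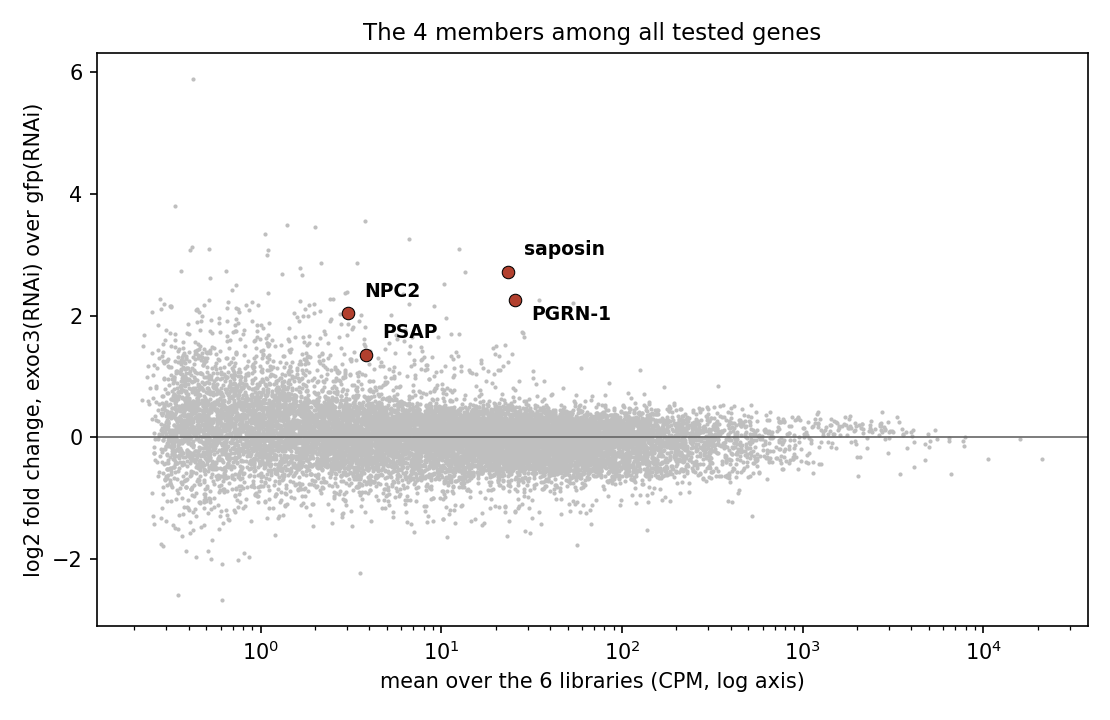
Log2 fold change, exoc3(RNAi) over gfp(RNAi), against the mean CPM over the 6 libraries (log axis) for the 14700 tested genes in grey, with the 4 members in red. The members lie between 1.36 and 2.72 on the vertical axis, above most genes of like mean CPM.

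How closely the replicates of a group followed each other differed between the members. The members were picked by name, but the names came from a part of the annotation that holds mostly strongly changed genes. Close replicates make a low p-value more likely, so that the spread was not independent of this choice. It is given as a description. The coefficient of variation (CV) between the exoc3(RNAi) libraries was 5.65% for saposin, 5.24% for PSAP and 5.14% for PGRN-1. Counting error alone would give 2.71%, 7.34% and 2.64% for these genes. The spread of PSAP was thus no wider than its counting error, and that of the other 2 was about 2 times as wide. For saposin the exact Poisson interval, described below, ran up to 40.95 CPM in exoc3(RNAi) replicate 1 and from 40.947 CPM in replicate 3. For PGRN-1 it ran up to 42.62 CPM in replicate 1 and from 42.61 CPM in replicate 3. The interval of replicate 2 met both for each gene. All exoc3(RNAi) intervals of these 2 genes thus met, if barely, and their width beyond counting error is uncertain. For NPC2 the CV was 30.03% in exoc3(RNAi), against 7.99% from counting. Without replicate 3 the CV was 8.27% for NPC2, 0.848% for saposin and 2.21% for PGRN-1, each over 2 libraries and near or under the counting error above. PSAP had a CV of 5.83% without it and 0.885% without replicate 1. Leaving out the farthest of 3 libraries usually narrows a CV, so that these falls alone do not place the width in replicate 3.

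In gfp(RNAi) cells the CV was 1.92% for saposin and 11.6% for PSAP, and counting error would give 7.13% and 12.1%. It was 32.5% for NPC2 and 16.5% for PGRN-1, where counting error would give 16.8% and 6.01%. The gfp(RNAi) spread of these 2 genes was thus wider than counting error and that of saposin and PSAP was not. The CV of PGRN-1 was 4.47% without replicate 1 and that of NPC2 was 15.3% without replicate 3, each over 2 libraries. That of PSAP, which had no width beyond counting error, likewise fell to 2.49% without replicate 1. These falls alone therefore do not place the width in 1 library. The exact Poisson interval (95%) of NPC2 was 5.74 to 7.46 CPM in exoc3(RNAi) replicate 3, which does not meet the 3.22 to 4.49 CPM of replicate 1 or the 3.57 to 5.11 CPM of replicate 2. For PGRN-1 in gfp(RNAi) it was 9.37 to 11.6 CPM in replicate 1, which does not meet the 6.78 to 8.77 CPM of replicate 2 or the 7.28 to 9.26 CPM of replicate 3. For NPC2 in gfp(RNAi) it was 0.510 to 1.14 CPM in replicate 3. This met the 0.892 to 1.70 CPM of replicate 1 and just met the 1.14 to 2.06 CPM of replicate 2. These intervals cover counting error only.

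Set against the gfp(RNAi) mean of its own gene, saposin was between 2.67 and 2.81 on the log2 scale in the 3 exoc3(RNAi) libraries and PGRN-1 between 2.20 and 2.35. PSAP was between 1.31 and 1.44, and NPC2 between 1.68 and 2.46. Saposin, NPC2 and PGRN-1 were highest in exoc3(RNAi) replicate 3, the library with the most *Smed-exoc3* transcript of its group, and PSAP was lowest there. Of all genes called higher, 48.4% were highest and 31.4% lowest in that library, and of all tested genes 35.7% were highest. A relation to the *Smed-exoc3* level was not tested and would rest on 1 library. The level of NPC2 in replicate 3 was 1.62 times the mean of replicates 1 and 2. The same ratio was 1.10 for saposin, 1.09 for PGRN-1 and 0.947 for PSAP, and over all tested genes its median was 0.989, with 1.27 at the ninetieth percentile.

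**Figure D3:**
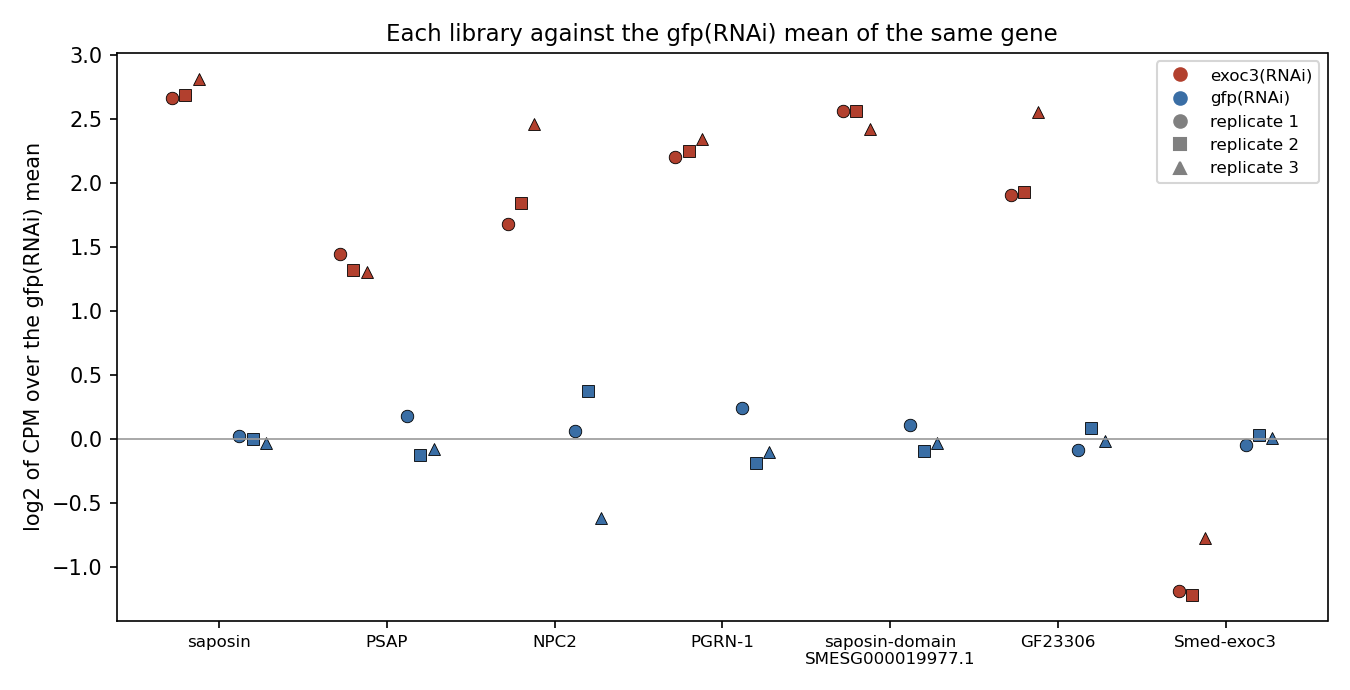
Log2 of the CPM of each library over the gfp(RNAi) mean of the same gene, for the 4 members, both other saposin-domain genes and *Smed-exoc3* (red, exoc3(RNAi); blue, gfp(RNAi); a shape per replicate). NPC2 and GF23306 are highest in exoc3(RNAi) replicate 3 (2.46 and 2.55), where *Smed-exoc3* is at -0.77, against -1.18 and -1.21 in replicates 1 and 2.

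Added up, the 4 members had 89.1, 90.9 and 99.8 CPM in exoc3(RNAi) replicates 1, 2 and 3, against 20.4, 17.4 and 17.1 CPM in gfp(RNAi). Their summed mean was 93.3 ± 5.70 CPM in exoc3(RNAi) and 18.3 ± 1.83 CPM in gfp(RNAi) (SD, n = 3 each), a ratio of 5.10. The members did not contribute to this in fixed proportion. Saposin took 43.2 to 43.7% of the members' reads in exoc3(RNAi) and 30.6 to 35.3% in gfp(RNAi), and PSAP took 5.32 to 6.55% in exoc3(RNAi) and 11.3 to 12.0% in gfp(RNAi). PGRN-1 took 44.9 to 46.0% in exoc3(RNAi) and 44.4 to 51.3% in gfp(RNAi), and NPC2 took 4.28 to 6.58% in exoc3(RNAi) and 4.58 to 8.92% in gfp(RNAi), so that their shares overlapped between the groups. A share of reads also depends on the length of each transcript, and only its change between groups compares the genes.

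**Figure D4:**
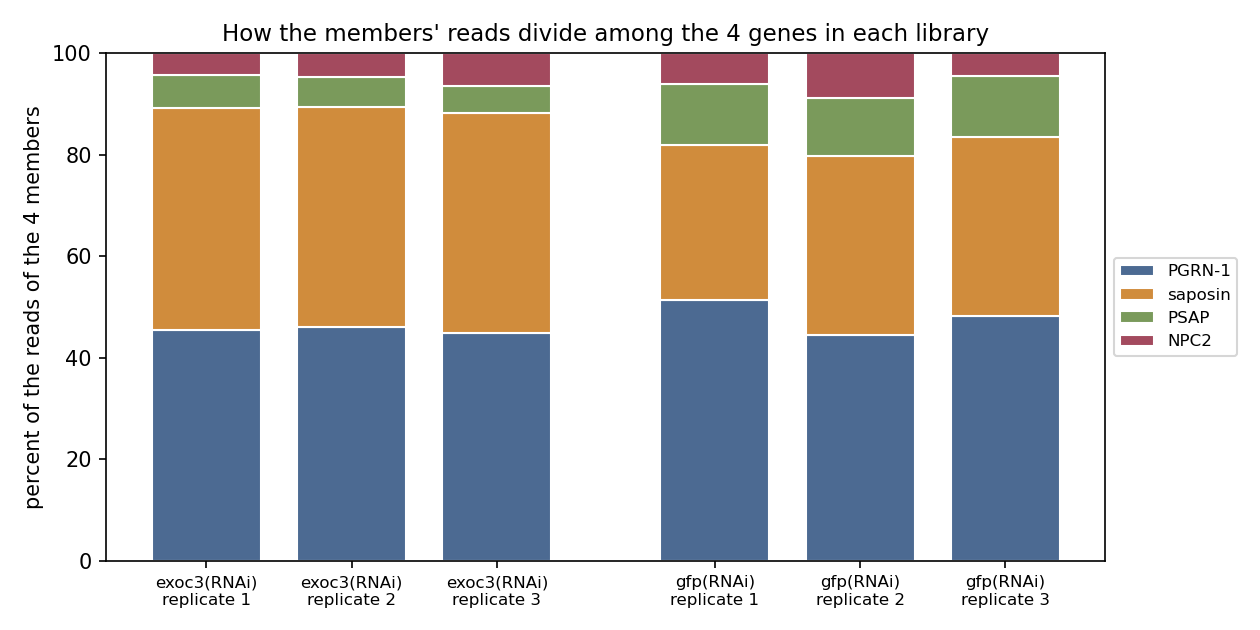
Percent of the reads of the 4 members that each gene took, by library (stacked bars, 3 exoc3(RNAi) libraries left and 3 gfp(RNAi) libraries right). The saposin segment is larger in exoc3(RNAi) (43.2 to 43.7%) than in gfp(RNAi) (30.6 to 35.3%), and the PSAP segment is smaller.

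Ratios within a library do not depend on how libraries are scaled to each other. There were 6.66, 7.32 and 8.11 saposin reads per PSAP read in exoc3(RNAi) replicates 1, 2 and 3, against 2.56, 3.11 and 2.94 in gfp(RNAi). The mean log2 ratio of saposin to PSAP was 2.88 ± 0.142 in exoc3(RNAi) and 1.52 ± 0.144 in gfp(RNAi) (SD, n = 3 each), a difference of 1.36 (SE 0.12). The ratio of the 2 saposin-family members thus differed between the groups by more than its SD between libraries. This is a description and no test, since the genes were chosen from this contrast.

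Of the remaining pairs, 2 had ratios that did not overlap between the groups. How often ratios of other tested genes do so was not computed, and nothing is read from this count. As single genes, 30.1% of those tested lay wholly above gfp(RNAi) in exoc3(RNAi) and 30.7% wholly below. The log2 ratio of saposin to PGRN-1 was -0.07 ± 0.0171 in exoc3(RNAi) and -0.51 ± 0.212 in gfp(RNAi), a difference of 0.44 (SE 0.12). The log2 ratio of PSAP to PGRN-1 was -2.94 ± 0.141 in exoc3(RNAi) and -2.03 ± 0.0679 in gfp(RNAi), a difference of -0.92 (SE 0.09). The 3 ratios that include NPC2 overlapped between the groups, with differences of 0.67 (SE 0.34) for saposin to NPC2, -0.69 (SE 0.41) for PSAP to NPC2 and -0.23 (SE 0.37) for NPC2 to PGRN-1. These differences come from the contrast that chose the genes and are given without a test.

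Names and domains were taken from the part of the study's gene annotation used here, 1508 genes that mostly ranked first by p-value in its own test. Every one of its 1317 named or domain-bearing genes was called, 342 higher and 975 lower, so that a call of a gene found through it is no independent evidence. It holds 4 genes with a saposin domain, 1 with a granulin domain and 1 with an ML domain, the lipid-binding fold of NPC2. Outside the members it thus adds 2 saposin-domain genes, and both were called higher.

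SMESG000019977.1, which has saposin-like type B domains and no gene name, had 18.3, 18.3 and 16.6 CPM in exoc3(RNAi) replicates 1, 2 and 3, against 3.34, 2.91 and 3.03 CPM in gfp(RNAi). The groups did not overlap, and exoc3(RNAi) was higher by 2.52 on the log2 scale (SE 0.09, adjusted p = 3.8e-10 in edgeR). SMESG000019986.1, annotated by its likeness to the *Drosophila* gene product GF23306, had 12.4, 12.6 and 19.4 CPM in exoc3(RNAi), against 3.12, 3.52 and 3.27 CPM in gfp(RNAi). Like NPC2 it was highest in exoc3(RNAi) replicate 3, and exoc3(RNAi) was higher by 2.16 on the log2 scale (SE 0.17, adjusted p = 2.8e-07 in edgeR), or by 1.92 (SE 0.10) without replicate 3. All saposin-domain genes in the annotation part used were higher in exoc3(RNAi), with PSAP the least. If near-identical copies share reads within this family, the counts of its members are uncertain, since reads that match several places were not counted.

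The lysosomal list holds 14 other genes whose annotated products act in the lysosome or sort proteins to it. Of these, 10 were called higher and 4 lower. Of the 1317 named or domain-bearing genes from which the list was drawn, 342 were called higher and 975 lower. Every one of them was called, and the list was chosen with earlier results known. The list's counts and median are therefore a description and no test of enrichment. Of all tested genes 25.8% were called higher and 27.1% lower. With libraries scaled by their totals alone the list's counts were the same, while 31.6% of all tested genes were called higher and 23.6% lower, so that the balance of the background turned round. The 14 log2 fold changes had a median of 0.95, where all tested genes had 0.02. Its summed level was nonetheless 468.7 to 485.3 CPM in exoc3(RNAi) and 485.2 to 489.9 CPM in gfp(RNAi), and the 4 genes called lower took more of the list's reads than the 10 called higher.

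The proteases of the list were all higher. SMESG000049722.1, a papain-family gene with a cathepsin propeptide domain, had 43.6, 42.8 and 44.4 CPM in exoc3(RNAi), against 13.9, 12.8 and 12.9 CPM in gfp(RNAi), which is 1.72 on the log2 scale (SE 0.05, adjusted p = 1.4e-10 in edgeR). Of the genes annotated as cathepsin A, which in mammals protects other lysosomal enzymes, SMESG000029163.1 rose by 2.37 on the log2 scale (SE 0.21) and SMESG000029164.1 by 1.07 (SE 0.07). Cathepsin B (CTSB), a lysosomal cysteine protease, rose by 0.89 (SE 0.08). The largest edgeR adjusted p among the 14 genes of the list was 2.0e-05.

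Among the enzymes that act on glycans and lipids, the gene with an alpha-galactosidase A domain (CG7997) had 17.2 ± 2.08 CPM in exoc3(RNAi) and 5.31 ± 0.198 CPM in gfp(RNAi) (SD, n = 3 each), higher by 1.70 on the log2 scale (SE 0.10). In mammals, alpha-galactosidase A is among the enzymes that work on glycolipids with saposins. Aspartylglucosaminidase (AGA), which removes sugar chains from asparagine, rose by 0.64 on the log2 scale (SE 0.05). The genes annotated as 1-O-acylceramide synthase precursor and as Group XV phospholipase A2 (PLA2G15) are names of the same kind of lysosomal lipase, and they rose by 2.27 (SE 0.18) and 1.00 (SE 0.13) on the log2 scale. Phospholipase D3 (PLD3) rose by 0.53 (SE 0.06) and the mucolipin channel ortholog TRPML, a cation channel of the lysosomal membrane, by 1.17 (SE 0.11).

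The genes called lower were the 3 of protein sorting and CD164. AP3D1 and AP3B2, subunits of the AP-3 adaptor that carries membrane proteins to lysosomes, had 73.7 ± 4.31 and 72.6 ± 1.36 CPM in exoc3(RNAi), against 118.7 ± 1.44 and 103.5 ± 2.09 CPM in gfp(RNAi) (SD, n = 3 each). Their log2 fold changes were -0.69 (SE 0.04, edgeR adjusted p = 4.2e-08) and -0.51 (SE 0.04, edgeR adjusted p = 1.1e-07). Sortilin 1 (SORT1), in mammals a sorting receptor that binds prosaposin and progranulin, fell by 0.41 on the log2 scale (SE 0.04). The sialomucin CD164 fell by 0.46 (SE 0.05). The hydrolases, the channel and the cofactors were thus higher in exoc3(RNAi), and the 3 sorting genes and CD164 were lower.

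**Figure D5:**
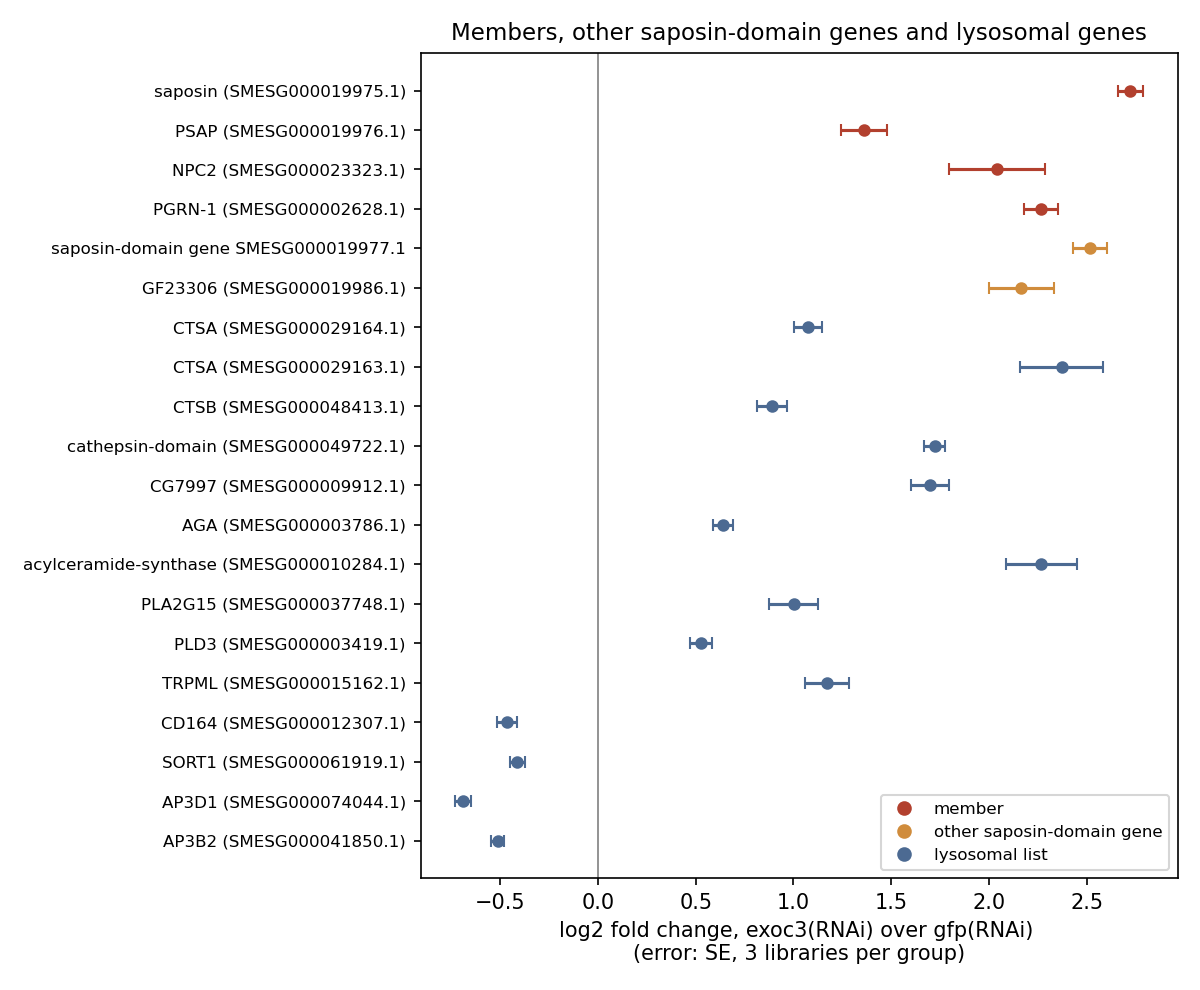
Log2 fold change, exoc3(RNAi) over gfp(RNAi), with its SE (3 libraries per group) for the 4 members, both other saposin-domain genes and the 14 genes of the lysosomal list. The members and the saposin-domain genes lie from 1.36 to 2.72, the 10 higher genes of the list from 0.53 to 2.37 and the 4 lower genes from -0.69 to -0.41.

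Among the 10 lysosomal genes called higher, 8 had their highest exoc3(RNAi) value in replicate 3, beside 48.4% of all genes called higher. None of the 4 called lower was highest there, and 3 were lowest, beside 62.6% of all genes called lower. The level in replicate 3 over the mean of replicates 1 and 2 was 1.53 for the cathepsin A gene SMESG000029163.1, 1.43 for PLA2G15 and 1.29 for the acylceramide synthase gene, against 1.62 for NPC2. Without replicate 3 the log2 fold changes of these 3 genes of the list were 2.14 (SE 0.17), 0.80 (SE 0.08) and 2.14 (SE 0.18), and the counts of the list were still 10 higher and 4 lower.

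The genes whose pattern over the 6 libraries was most like that of each member were sought among the 7700 or so tested genes that averaged 10 CPM or more. PSAP and NPC2 lay under this floor in every library, so that genes at their own level were not searched and nearer ones may exist. Likeness was the root mean square (RMS) difference of log2 CPM after each gene was set to its own gfp(RNAi) mean. For saposin the nearest were SMESG000019977.1, the saposin-domain gene described above (0.18), a gene annotated as asparaginase, SMESG000051813.1 (0.27), and the unnamed gene SMESG000007684.1 (0.33). For PSAP they were a gene with a von Willebrand factor type A domain, SMESG000080919.1 (0.11), a gene annotated as mannose receptor, C type 1, SMESG000053708.1 (0.12) and an unnamed gene (0.12). For NPC2 they were a gene with a Kunitz trypsin inhibitor domain, SMESG000009888.1 (0.31), the alpha-galactosidase A domain gene CG7997 of the lysosomal list (0.36) and an unnamed gene (0.38). For PGRN-1 they were the unnamed gene SMESG000024663.1 (0.10), SMESG000007684.1 again (0.17) and SMESG000019977.1 again (0.20).

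Among the genes searched, the nearest thus differed least from PGRN-1 and PSAP, and most from NPC2. The replicates of NPC2 had the largest CV in both groups, and the floor of 10 CPM left out genes at its level. Between the members themselves the RMS difference was smallest for saposin and PGRN-1 (0.33), followed by NPC2 and PGRN-1 (0.41). It was 0.60 for saposin and NPC2, 0.61 for PSAP and NPC2, 0.67 for PSAP and PGRN-1 and 0.98 for saposin and PSAP. The members that share the saposin domain were thus the pair least alike in size of change, and saposin was nearer to SMESG000019977.1 than to any member. Since each gene was set to its gfp(RNAi) mean, these differences largely restate the log2 fold changes given above. They are a description and no test.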

How the data were processed

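Per the labels and the study's methods, X1 cells were sorted, and poly(A) RNA was made into stranded, single-end libraries. The authors aligned reads with STAR 2.7.2b to the dd_Smes_g4 genome and counted them per gene with featureCounts 1.6.5 on the reverse strand, after base calling with bcl2fastq 1.8.4. The deposited values are raw counts of reads per gene, not normalized, and reads that match several places or genes were not counted. Gene names came from the part of the study's annotation table used here; its columns of fold changes and p-values were not used. The members and the gene lists were chosen with earlier results of these data known.

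Counts were scaled by TMM and fitted with edgeR 4.0.16 (R 4.3.3) by the quasi-likelihood test over 14700 genes that passed its default expression filter (minimum count 10), with 3 libraries per group and no covariate, after the code was tested on simulated data. P-values were adjusted by Benjamini-Hochberg over all tested genes, with calls at an adjusted p under 0.05. The log2 fold change is exoc3(RNAi) over gfp(RNAi), and its SE is its size divided by the root of the F statistic. Genes named are the 4 members, both other saposin-domain genes, the lysosomal list, *Smed-exoc3* and, per member, the 3 most like genes that averaged 10 CPM or more (log2 CPM with a prior count of 2). Marker genes carry the names of the same annotation, so that their calls are not independent evidence either. Depth was 28897363 to 37525894 assigned reads per library, and the 95% Poisson intervals cover counting error only. Alternatives were library size without TMM, DESeq2 1.42.0, no filter, a filter of 10 CPM in 3 libraries, robust dispersion, a replicate block and leaving out each library. The CVs without each library and the values of single listed genes without exoc3(RNAi) replicate 3 were added after seeing the data. Replicates of a group were not copies of each other, since each pair differed by more than counting error.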

Additional observations from a re-analysis of the deposited data

How the results depend on the processing

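The log2 fold changes of the members kept their sign under every alternative that could be run. PSAP and NPC2 did not pass the filter of 10 CPM in 3 libraries and have no value there. Leaving out each library in turn gave 2.67 to 2.75 for saposin, 1.30 to 1.46 for PSAP, 1.76 to 2.27 for NPC2 and 2.19 to 2.41 for PGRN-1. The highest value of PSAP (1.46) and of PGRN-1 (2.41) came without gfp(RNAi) replicate 1, and the lowest of PGRN-1 (2.19) without gfp(RNAi) replicate 2. The count of called genes was 7784 and ran from 6642 to 8115 when a library was left out, and it was 6339 with DESeq2 and 5612 under the filter of 10 CPM, which tested 7817 genes. Of the lysosomal list 10 genes were called higher and 4 lower under each alternative, except that 7 were called higher under that filter, which removed the other 3. *Smed-exoc3* ran from -1.20 to -0.96. In an alternative chosen after seeing the data, leaving out each library of a group gave CVs in exoc3(RNAi) of 0.848 to 7.20% for saposin, 0.885 to 6.72% for PSAP, 8.27 to 37.4% for NPC2 and 2.21 to 7.04% for PGRN-1. In gfp(RNAi) they were 1.15 to 2.71%, 2.49 to 14.8%, 15.3 to 46.7% and 4.47 to 21.2% for the same genes. Without exoc3(RNAi) replicate 3, also chosen after seeing the data, each gene of the lysosomal list and both other saposin-domain genes kept their direction and call. Of all tested genes 31.6% were called higher and 23.6% lower with library size alone, in place of 25.8% and 27.1%.

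No pairing by replicate number was seen, since deviations of samples with the same number correlated at -0.01, 0.01 and -0.03. With 3 libraries per group this cannot exclude that samples of the same number were handled together. With a replicate block 7642 genes were called, and the log2 fold changes were 2.72 for saposin, 1.36 for PSAP, 2.03 for NPC2 and 2.27 for PGRN-1. The main limits are 3 libraries per group, the low depth of PSAP and NPC2, and names taken from an annotation that holds mostly changed genes.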
